A study of Mus musculus with 9 samples.

Results

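The 8 genes described here encode parts of the dystrophin complex of the muscle cell membrane: Dmd, Utrn, Dtna, Sntb1, Sntb2, Sntg2, Sgca and Sgcd. They were picked by name from the 38293 genes of a mouse read count table, with earlier results of these libraries known, and among them Sntg2 was picked for its rise from a very low level. RNA came from whole ventricles of mouse pups at postnatal day 7. The 5 control libraries were from Arid1a f/f mice, in which loxP sites flank part of the Arid1a gene and no Cre is present. The 4 cKO libraries were from aMHC-Cre;Arid1a f/f mice, which carry the same floxed alleles plus a Cre recombinase transgene driven by the cardiomyocyte promoter αMHC. The comparison asked which genes depend on Arid1a, part of the SWI/SNF complex that moves nucleosomes, after birth.

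The mice were kept on a C57B/6 J background and pups of either sex were used, per the study's methods. The deletion is confined by design to cells in which the αMHC promoter is active, while the RNA came from all cells of the ventricle. In such bulk samples, fewer cells of a type and less RNA per cell cannot be told apart. The labels do not say whether each library came from a separate animal; the study speaks of them as hearts and counts biological replicates. The errors given here are those between libraries.

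Dystrophin, the product of Dmd, is a long rod-like protein that links actin under the plasma membrane to a group of membrane proteins. At its centre stands dystroglycan, whose outer subunit binds laminin in the basement membrane, and beside it the sarcoglycans form a complex of their own that is held together with sarcospan. On the cytoplasmic side dystrophin binds the dystrobrevins and the syntrophins, adaptor proteins that anchor ion channels and signalling enzymes. In the heart, loss of dystrophin or of a sarcoglycan is known to cause cardiomyopathy.

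All 8 genes passed the filter on low counts and were among the 15318 genes tested. In edgeR's quasi-likelihood test 1 of the 8, Sntg2, was called, which means an adjusted p under 0.05 with a fold change over 1.5; over all tested genes 6.72% were called, 4.01% as higher and 2.72% as lower in cKO. Because the genes were picked on this same contrast, the changes of the 8 are given as a description, without p-values, and nothing is read from that count. Levels are in CPM, counts scaled to a common library total, with the totals adjusted by the TMM method. Of the 8 genes 6 had a log2 fold change above 0 and 2 below, with a median of 0.20, against a median of 0.0094 over all tested genes, of which 51.5% lay above 0.

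The libraries held 31011055 to 40073801 counts in 19418 to 20317 detected genes. Arid1a itself stood at 128.0 to 148.1 CPM in the controls and at 100.3 to 112.9 CPM in cKO, without overlap, a log2 fold change of -0.39 (SE 0.063, edgeR adjusted p = 0.00132). The cardiomyocyte markers tested here were abundant in all libraries, with a summed level of 55643 to 64018 CPM in controls and of 49640 to 53156 CPM in cKO, which did not overlap; Myl2 and Pln passed as lower among the 8 listed, against 8.03% of all tested genes. The libraries also formed sets that cut across the genotypes, by the level of Rps3a3, a copy of a ribosomal protein gene: control replicates 1 and 2 and cKO replicates 1 to 3 stood at 0.345 to 0.521 CPM, and control replicates 3 to 5 and cKO replicate 4 at 99.7 to 112.3 CPM. These sets are called Rps3a3-low and Rps3a3-high below, and no label explains them. The Rps3a3-high set thus holds 1 cKO library, and a change within it, or its difference from the other set, rests on that library.

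The promoter of Sntg2, the gene with the largest change, and that of Sgca, the gene with the highest level per length, are shown as the 250 bases before the RefSeq start, read 5′ to 3′ on the gene's own strand, from build GRCm38.p6. The Sntg2 window lies at chr12:30373377-30373626 and the Sgca window at chr11:94976328-94976577, both on the minus strand. Capitals mark matches to any of the motifs searched on both strands, none of which overlapped here: the TEAD core GGAATG, the estrogen-related receptor site AAGGTCA, the MEF2 site, the E-box CANNTG and the GC box GGGCGG. In these windows the capitals are E-boxes and GC boxes.
Sntg2: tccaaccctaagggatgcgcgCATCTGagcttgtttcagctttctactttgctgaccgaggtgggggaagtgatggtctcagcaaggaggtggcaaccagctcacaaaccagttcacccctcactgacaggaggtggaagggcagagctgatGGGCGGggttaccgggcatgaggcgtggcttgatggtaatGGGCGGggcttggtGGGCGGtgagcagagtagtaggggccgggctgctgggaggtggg
Sgca: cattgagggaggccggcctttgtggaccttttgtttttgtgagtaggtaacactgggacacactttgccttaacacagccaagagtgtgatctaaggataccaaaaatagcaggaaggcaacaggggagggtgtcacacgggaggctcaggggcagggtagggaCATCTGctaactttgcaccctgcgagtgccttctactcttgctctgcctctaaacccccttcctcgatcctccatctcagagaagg

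The Sntg2 window was 60.8% G and C, against a median of 52.4% over all promoters, and held 1 E-box and 3 GC boxes, which start 98, 58 and 44 bases before the start. The Sgca window was 52.8% G and C and held 1 E-box, 86 bases before the start, and no GC box. Over all 32536 promoter windows of this length, 66.2% held an E-box, 33.0% a GC box, 12.6% a TEAD core, 4.09% the receptor site and 0.513% a MEF2 site. Among the promoters found for the 8 genes, Sgcd held 1 TEAD core, and none of those of Dmd, Utrn, Sntg2 and Sgca did. These matches describe letters only, and the GC box was added to the search after the Sntg2 sequence had been seen. Of 13 genes of the complex looked up, 9 had a promoter in the table; Dtna, Sntb1, Sntb2 and Sgce had no entry.

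Dmd (ENSMUSG00000045103; GRCm38 chromosome X, 82948870 to 85206141, plus strand) stood at 108.6, 110.0, 108.1, 131.1 and 120.7 CPM in control replicates 1 to 5. In cKO replicates 1 to 4 it stood at 115.4, 96.7, 109.6 and 106.1 CPM. The groups overlapped, and the 2 highest libraries were controls. The control mean was 115.7 ± 10.1 CPM (SD, n = 5), the cKO mean 107.0 ± 7.83 CPM (SD, n = 4) and the log2 fold change -0.11 (SE 0.076, 95% interval -0.28 to 0.05). The interval leaves out a change of 1.5-fold in either direction.

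Utrn (ENSMUSG00000019820; chromosome 10, 12382188 to 12869365, minus strand) encodes utrophin, the autosomal relative of dystrophin that can take its place at the membrane. Its level was 103.4, 103.0, 98.8, 113.5 and 105.8 CPM in the controls and 105.6, 92.4, 108.2 and 90.2 CPM in cKO. The cKO libraries split into a pair inside the control range and a pair below it, and the log2 fold change was -0.08 (SE 0.071, 95% interval -0.24 to 0.07). Set side by side per kilobase of exon, Dmd made up 44.2 ± 1.02% (SD, n = 5) of the sum of both genes in controls and 43.7 ± 1.60% (SD, n = 4) in cKO.

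Dtna (ENSMUSG00000024302; chromosome 18, 23415135 to 23659715, plus strand) encodes α-dystrobrevin, a relative of dystrophin that binds it directly. It varied least among the controls relative to its mean: 36.0, 38.7, 36.7, 37.3 and 35.8 CPM. In cKO it stood at 39.4, 35.8, 40.4 and 38.2 CPM, with 2 of the 4 libraries above every control. The log2 fold change was 0.06 (SE 0.061, 95% interval -0.07 to 0.19). Per kilobase, Dtna made up 80.9% of the sum of Dtna and its relative Dtnb in controls and 80.3% in cKO.

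The syntrophins are adaptors with a PDZ domain through which they hold channels and kinases. Sntb1 (ENSMUSG00000060429; chromosome 15, 55636388 to 55906949, minus strand), β1-syntrophin, spread widely among the controls, at 29.4, 22.6, 23.3, 28.7 and 32.9 CPM, and stood at 26.8, 31.1, 34.6 and 33.8 CPM in cKO. The groups overlapped, and 2 cKO libraries lay above every control. Its log2 fold change was 0.21 (SE 0.118, 95% interval -0.05 to 0.46).

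Sntb2 (ENSMUSG00000041308; chromosome 8, 106935750 to 107019714, plus strand), β2-syntrophin, which is found in most tissues, stood at 15.8, 15.6, 14.5, 17.5 and 18.7 CPM in controls. In cKO the values were 18.3, 19.7, 19.3 and 22.6 CPM. Only control replicate 5, at 18.7 CPM, reached into the cKO range, and 3 cKO libraries lay above every control. The log2 fold change was 0.28 (SE 0.097, 95% interval 0.07 to 0.49), below the fold of a call.

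Sntg2 (ENSMUSG00000020672; chromosome 12, 30174482 to 30373375, minus strand) encodes γ2-syntrophin, a member of the branch of the family that also holds the γ1 form of neurons. It was read 28 to 63 times per control library and 394 to 645 times per cKO library. In controls this made 1.90, 1.33, 1.39, 1.26 and 0.905 CPM, and in cKO 12.3, 13.5, 12.6 and 15.6 CPM. Every cKO library stood far above every control; over all tested genes 16.7% had no overlap between the groups. The control mean was 1.36 ± 0.36 CPM (SD, n = 5) and the cKO mean 13.5 CPM (n = 4), which made the log2 fold change 3.31 (SE 0.179, 95% interval 2.92 to 3.70) or 9.92 times the control level. By size of log2 fold change it was the 19th highest of the 15318 genes. The log2 difference was 2.96 within the Rps3a3-low libraries and 3.68 within the Rps3a3-high libraries.

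Sgca (ENSMUSG00000001508; chromosome 11, 94962791 to 94976327, minus strand) encodes α-sarcoglycan, a sarcoglycan made almost only in striated muscle. It stood at 77.2, 76.5, 57.6, 55.1 and 55.8 CPM in controls, in 2 separate clusters, and at 71.8, 83.7, 77.8 and 63.1 CPM in cKO. The groups overlapped, and the log2 fold change of 0.20 (SE 0.124, 95% interval -0.07 to 0.47) was 0.01 among Rps3a3-low and 0.17 among Rps3a3-high libraries.

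Sgcd (ENSMUSG00000020354; chromosome 11, 46896253 to 47988969, minus strand) encodes δ-sarcoglycan, which forms the core of the sarcoglycan complex together with the β form. It was a low gene, at 6.74, 6.98, 6.07, 8.78 and 7.63 CPM in controls and 8.71, 9.89, 9.18 and 9.08 CPM in cKO. Control replicate 4 alone overlapped the cKO range. The log2 fold change was 0.35 (SE 0.118, 95% interval 0.09 to 0.61), the second highest of the 8 after Sntg2. Without control replicate 4 it was 0.43.

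**Figure D1:**
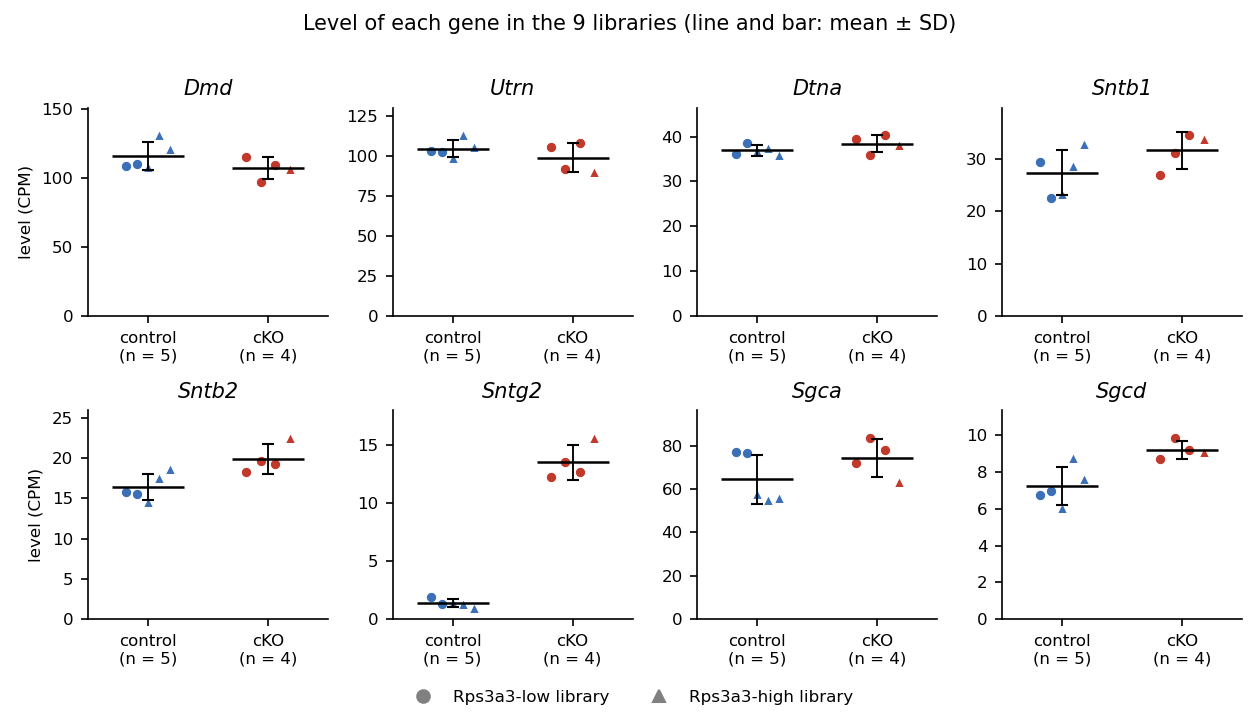
Level in CPM (vertical axes, from 0) of each of the 8 genes in the 5 control and 4 cKO libraries (horizontal axes). Points are libraries, with circles for the Rps3a3-low and triangles for the Rps3a3-high set, and lines and bars are means and SD. The cKO points of Sntg2 sit between 12.3 and 15.6 CPM, all above the control points at 0.905 to 1.90 CPM, while in the other 7 genes the groups overlap.

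Per kilobase of exon, the control levels of the 8 genes ran from 37.1 CPM per kb for Sgca to 0.397 CPM per kb for Sntg2. Between them came Utrn at 6.13, Sntb1 at 5.14, Dmd at 4.86, Dtna at 2.18, Sntb2 at 1.59 and Sgcd at 0.877 CPM per kb. The ranges of the controls overlapped between Utrn and Sntb1, although Utrn was the higher of the pair in each of the 5 control libraries. Those of Sntb1 and Dmd also overlapped, with Sntb1 the higher in 2 of 5 libraries, and these neighbours cannot be ordered beyond their spread. The order depends on the length used: with the longest annotated transcript instead of all exons, Dmd stood at 7.76 CPM per kb, above Sntb1 at 5.56. Dtna, at 5.86 CPM per kb with that length, overlapped Sntb1 and was above it in 3 of 5 control libraries; Utrn and Dmd overlapped too, as did Sntb2 and Sgcd. Sgca was highest and Sntg2 lowest with either length. In cKO, Sntg2 stood at 3.96 ± 0.44 CPM per kb (SD, n = 4), above Sntb2 at 1.93 ± 0.18 and Sgcd at 1.12 ± 0.06.

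The change of Sntg2 altered the proportions among Sntb1, Sntb2, Sntg1 and Sntg2, the β and γ syntrophins, at the RNA level. The share of Sntg2 in the summed level per kilobase of these 4 genes was 5.67 ± 1.62% in controls (SD, n = 5; range 3.21 to 7.29%) and 33.4 ± 1.88% in cKO (SD, n = 4; range 30.7 to 34.9%). In controls Sntg2 was below Sntb2, with a share of 22.3 ± 1.61%, and in cKO it was above it, at 16.3 ± 0.63%. Sntb1 held the largest share of the 4 in both groups, 71.8 ± 2.16% in controls and 50.1 ± 2.60% in cKO. Their sum was 7.13 ± 0.93 CPM per kb in controls and 11.8 ± 1.10 CPM per kb in cKO. The γ1 gene, Sntg1, was near 0 throughout, at no more than 0.498 CPM in any library, and was not tested.

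Shares were computed in the same way among Sgca, Sgcb, Sgcd, Sgce and Sgcz. Sgca made up 48.0 ± 4.84% of the summed level per kilobase of these 5 sarcoglycan genes in controls (SD, n = 5; range 43.6 to 54.2%) and 60.8 ± 3.81% in cKO (SD, n = 4; range 56.5 to 65.7%). The library sets are spread unevenly over the groups, and this share differed between them. In the Rps3a3-low set it was 54.2 and 52.1% in controls and 59.5 to 65.7% in cKO. In the Rps3a3-high set it was 43.6 to 45.3% in controls and 56.5% in the single cKO library. Sgcb, β-sarcoglycan, went from 45.7 ± 4.21% to 32.2 ± 3.40%. Sgcd made up 0.987 to 1.46% in controls and 1.52 to 1.71% in cKO. The shares depend on the length used: with the longest annotated transcript, Sgcd made up 1.63 to 2.41% in controls and 2.53 to 2.80% in cKO. The sum itself was 77.0 ± 5.99 CPM per kb in controls and 70.1 ± 4.26 CPM per kb in cKO, in ranges that overlapped (71.0 to 84.6 and 64.3 to 73.5). The share of a gene says nothing of how much protein enters a complex.

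**Figure D2:**
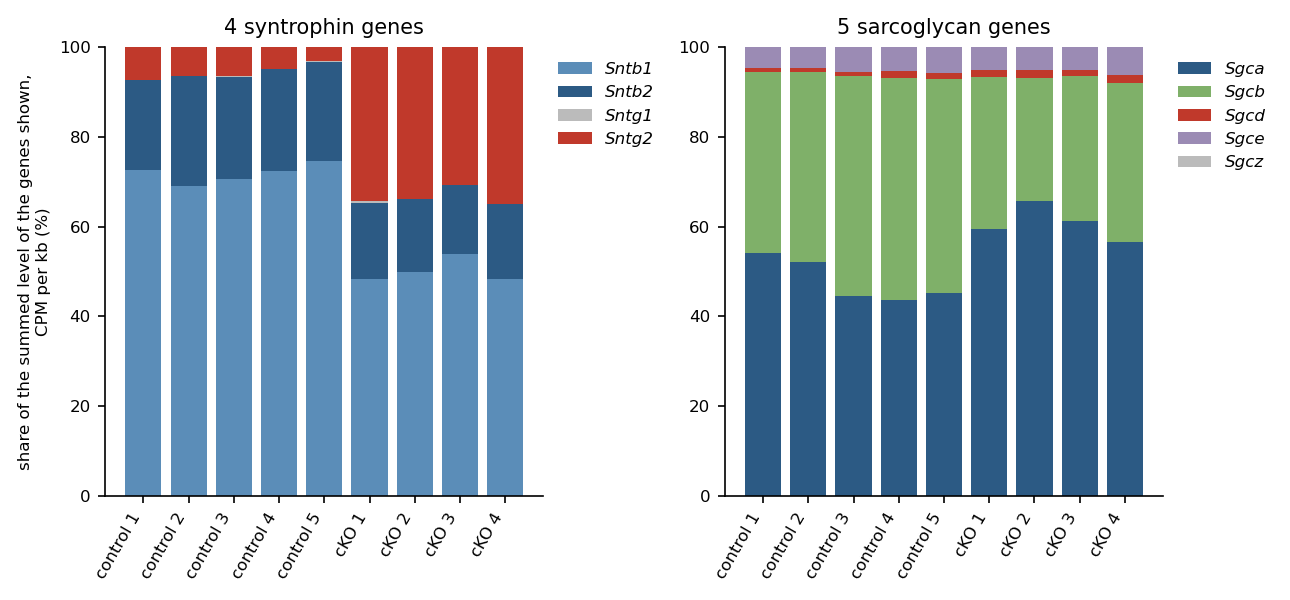
Share in percent (vertical axis) of each gene in the summed level per kilobase of the genes shown, with 4 syntrophin genes on the left, 5 sarcoglycan genes on the right and 1 bar for each library. The Sntg2 segment is 3.21 to 7.29% in controls and 30.7 to 34.9% in cKO, and the Sgca segment is 43.6 to 54.2% in controls and 56.5 to 65.7% in cKO.

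The other genes of the complex were read from the same fit. Of 7 listed, 5 were tested. By edgeR, 2 of the 5 (40%) fell in cKO at an adjusted p under 0.05, against 8.03% of all tested genes. At that threshold 0 of the 5 rose, against 8.25% of all tested genes. By DESeq2, or at an unadjusted p under 0.05 by edgeR, 0 of the 5 rose as well. For these 2 readings the share of all genes that rose is not given, and nothing is read from counts this small. Sgcb stood at 133.8 to 147.5 CPM in controls and at 81.9 to 95.3 CPM in cKO, a log2 fold change of -0.64 (SE 0.063, edgeR adjusted p = 3.71e-05). It was called, and its groups did not overlap. Sspn, which encodes sarcospan, fell by 0.28 on the log2 scale (SE 0.059, edgeR adjusted p = 0.00764), with 328.9 ± 16.8 CPM in the controls (n = 5, SD) and 271.5 ± 12.2 CPM in cKO (n = 4, SD), under the fold of a call. In the 5 Rps3a3-low libraries alone its change was -0.22 and did not pass (edgeR adjusted p = 0.192).

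The remaining 3 did not pass. Dag1, the dystroglycan gene, had a log2 fold change of 0.17 (95% interval -0.0045 to 0.34). Sgce, ε-sarcoglycan, had -0.05 and Dtnb, β-dystrobrevin, 0.10, with intervals that span 0. Sgcz, another sarcoglycan gene, stood at 0 in 7 of the 9 libraries and was not tested.

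**Figure D3:**
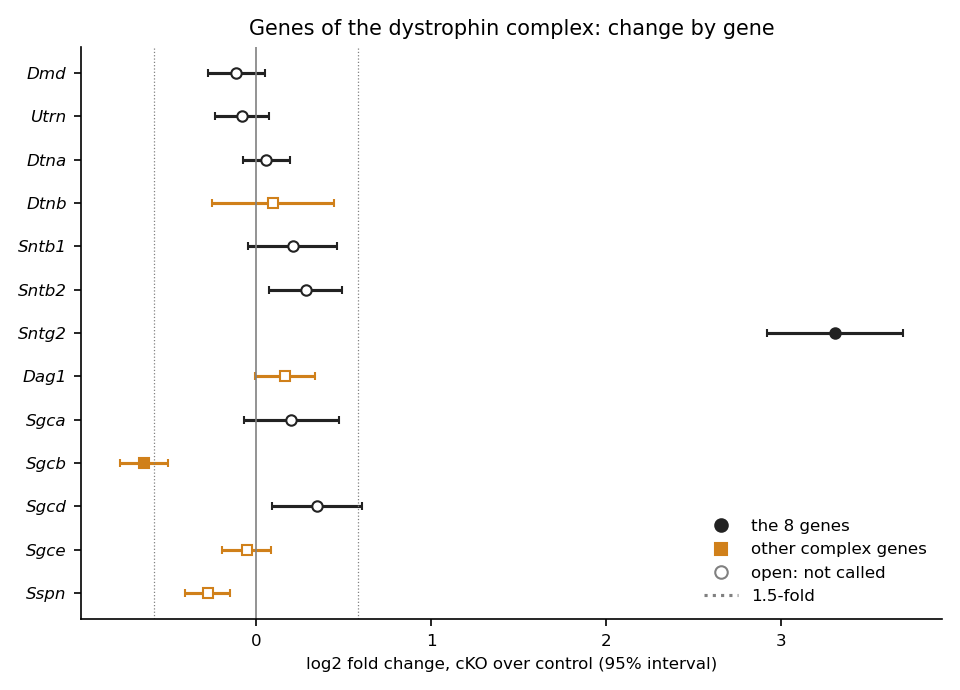
Log2 fold change of cKO over control (horizontal axis) with its 95% interval for the 8 genes in black and the 5 other tested genes of the complex in orange. Filled symbols are called genes and dotted lines mark 1.5-fold; Sntg2 stands at 3.31 to the right, Sgcb at -0.64 to the left, and the points of the rest lie between the dotted lines.

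The library sets gave a contrast that the choice of the 8 genes had not used. With genotype in the fit, Sgca was lower in the Rps3a3-high libraries, by a log2 difference of -0.39 (SE 0.065, edgeR adjusted p = 0.00899); over all tested genes 4.81% passed an adjusted p of 0.05 for the set. The 5 Rps3a3-low libraries held 71.8 to 83.7 CPM of Sgca, with a mean of 77.4 ± 4.25 CPM (SD), and the 4 Rps3a3-high libraries 55.1 to 63.1 CPM, with a mean of 57.9 ± 3.63 CPM (SD), without overlap. For the other 7 genes the set term had an adjusted p of 0.293 or above by edgeR. The genes nearest to Sgca on either side, Col1a1 and Ppp1r9b, are described further on, and what separates the library sets was not tested.

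**Figure D4:**
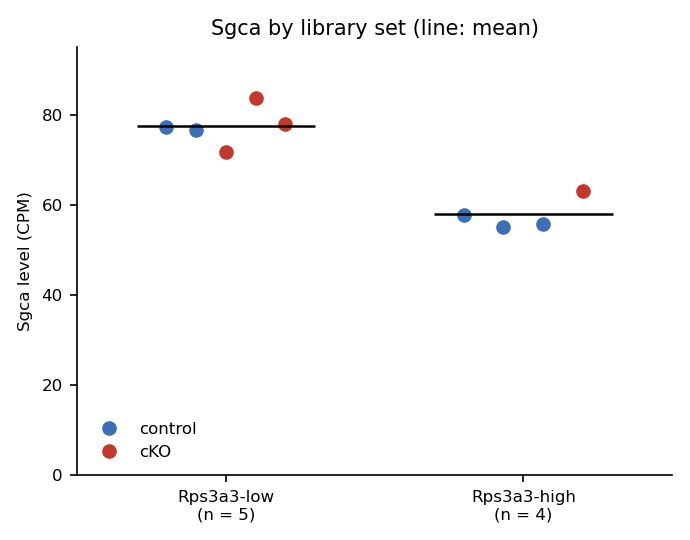
Level of Sgca in CPM (vertical axis, from 0) in the Rps3a3-low and Rps3a3-high libraries (horizontal axis), with control libraries in blue and cKO libraries in red and a line at each mean. The low set lies at 71.8 to 83.7 CPM and the high set at 55.1 to 63.1 CPM, and each holds libraries of both genotypes.

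Dmd is X-linked, and the libraries differed in Xist, the RNA of the inactive X chromosome, which was abundant in replicates 2 and 3 of the controls and in cKO replicates 3 and 4. With genotype in the fit, Dmd differed between Xist-high and Xist-low libraries by -0.07 on the log2 scale (SE 0.079, edgeR adjusted p = 0.9999). None of the 8 genes passed for Xist in that fit, and the lowest unadjusted p among them was 0.256; over all tested genes 0.0522% passed. The genotype change was also compared between library sets and between Xist classes. None of the 8 passed an adjusted p of 0.05 for either interaction by edgeR, where 0.0131% and 0.00653% of all tested genes passed. At an unadjusted p under 0.05, Sntg2 was the 1 gene of the 8 for the library set, with a difference in log2 fold change of 0.73 (SE 0.314, unadjusted p = 0.0406, edgeR adjusted p = 0.947), which rests on the single cKO library of the Rps3a3-high set. For Xist it was Sntb1, with 0.64 (SE 0.160, unadjusted p = 0.0026, edgeR adjusted p = 0.999). Over all tested genes 4.05% had an unadjusted p under 0.05 for the interaction with the library set and 2.56% for that with Xist.

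Proteins that bind the outer face of the complex were followed by a list of 9 dystroglycan ligands, all tested, of which 2 passed, both as lower, against 8.03% of all tested genes that fell. Lama5, the laminin α5 chain, fell by 0.82 on the log2 scale (SE 0.140, edgeR adjusted p = 0.00221) and was called; its controls lay at 64.3 to 97.5 CPM and its cKO libraries at 38.1 to 54.4 CPM. Egflam, which encodes pikachurin, fell by 0.54 (SE 0.109, edgeR adjusted p = 0.00567). The other 7 did not pass, among them Lama2, the laminin α2 chain of muscle, with a log2 fold change of 0.08. The median of the list was 0.03.

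Of 18 listed cytoplasmic partners of dystrophin and the syntrophins, all tested, 7 fell and 2 rose at an adjusted p under 0.05 (50%, against 16.3% of all tested genes), with a median log2 fold change of -0.26. Like all gene lists here, this one was chosen with earlier results of these libraries known, so nothing is read from the 50%. Kcnj12, an inward rectifier potassium channel that binds syntrophins, stood at 18.4, 14.4, 12.2, 14.7 and 15.3 CPM in controls and at 2.99, 3.50, 4.46 and 2.93 CPM in cKO. It fell by 2.11 on the log2 scale (SE 0.157, edgeR adjusted p = 4.3e-06). Sync, which encodes syncoilin, an intermediate filament protein that binds α-dystrobrevin, fell by 2.06 (SE 0.155, edgeR adjusted p = 4.88e-06), with 10.8 ± 1.67 CPM in the controls (n = 5, SD) and 2.59 ± 0.39 CPM in cKO (n = 4, SD). Krt8, a keratin of simple epithelia, rose by 3.87 (SE 0.418, edgeR adjusted p = 0.000293), and its levels of 0.64 to 2.30 CPM in controls and 9.61 to 23.8 CPM in cKO did not overlap.

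Aqp4, a water channel anchored by syntrophins, fell by 1.44 on the log2 scale (SE 0.295, edgeR adjusted p = 0.0111), but its controls ran from 22.0 to 58.1 CPM against 10.3 to 19.2 CPM in cKO. It did not pass in the 5 Rps3a3-low libraries alone (-1.45, edgeR adjusted p = 0.219). The other partners that fell were Kcnj2, a second inward rectifier channel (-1.18), Mapk12, a p38 kinase that binds syntrophins (-0.47), and the membrane adaptors Ank3 (-0.27) and Ank2 (-0.25). Des, the desmin gene, rose by 0.42 on the log2 scale (SE 0.103, edgeR adjusted p = 0.0152). Of these, Ank3 did not pass when control replicate 1, 2, 4 or 5 or cKO replicate 1, 2 or 3 was left out (-0.22 to -0.31), nor Ank2 when control replicate 2 or 4 or cKO replicate 2 or 4 was (-0.21 to -0.24).

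Of 17 genes that make the sugar chain of dystroglycan, Dag1 itself included, 0 passed by edgeR, against 16.3% of all tested genes. At an unadjusted p under 0.05 by edgeR 6 of the 17 were lower, against 14.5% of all tested genes, and 2 were lower by DESeq2, against 8.98%. Among 11 genes of the integrin α7β1 system, the other laminin receptor of muscle, 3 passed, against 16.3% of all tested genes. Lims1 fell by 0.39 (edgeR adjusted p = 0.00913) and Ilk rose by 0.27 (edgeR adjusted p = 0.00871). Lims1, Ilk and Tln2, the third that passed, did not pass in the 5 Rps3a3-low libraries alone, with changes of -0.30, 0.20 and -0.29. Tln2 had -0.23 (edgeR adjusted p = 0.0305) and did not pass when any of control replicates 1, 2 and 5 or cKO replicates 1, 3 and 4 was left out (-0.19 to -0.23, edgeR adjusted p = 0.0605 to 0.0895), nor with the Xist class as a term (-0.22, edgeR adjusted p = 0.0532). The medians were -0.03 for glycosylation and -0.08 for integrins.

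**Figure D5:**
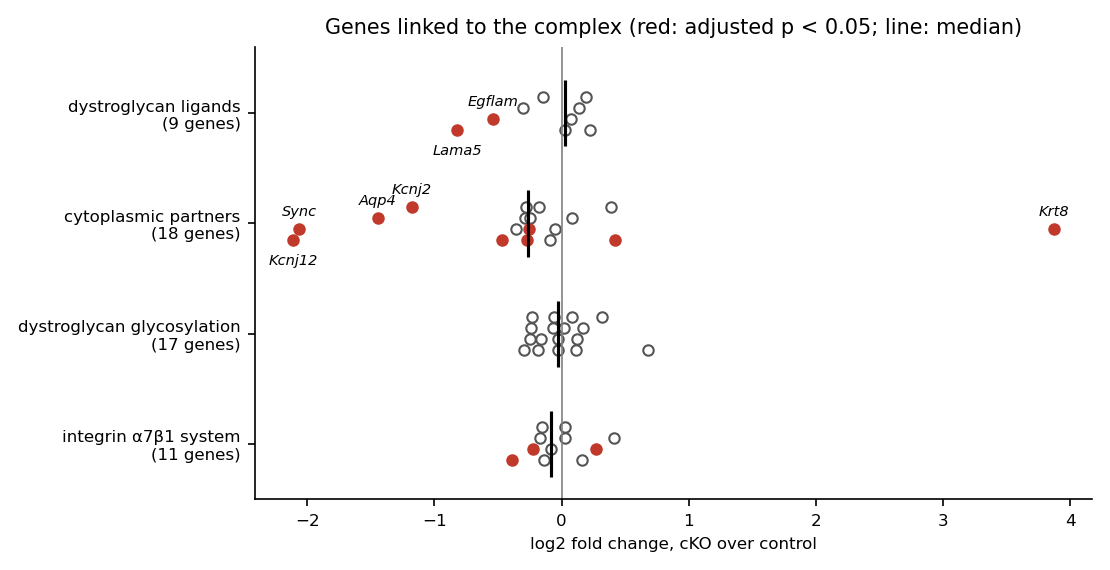
Log2 fold change of cKO over control (horizontal axis) of each tested gene in 4 lists linked to the complex (rows), with red points for genes past an adjusted p of 0.05 and a black line at each median. The partner row is the widest, from Kcnj12 at -2.11 to Krt8 at 3.87, with its median at -0.26.

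Markers of other cell types were read beside these changes, and their part in them was not tested. Of 8 fibroblast markers 3 rose (Col1a1, Col1a2 and Tcf21), against 8.25% of all tested genes. The median log2 fold change of the list was 0.13, with Dcn at -0.04 and Dpt at -0.26 below 0, and the sum of the 8 overlapped between groups, at 5855 to 7220 CPM in controls and 6973 to 8330 CPM in cKO. The sum of 8 Schwann cell and neuron markers was 17.1 to 21.1 CPM in controls and 17.4 to 24.2 CPM in cKO; of 6 tested, with a median log2 fold change of -0.20, 1 passed, Dbh, which rose by 0.61, against 8.25% of all tested genes, and Snap25 and Syt1 stood at or under 0.404 CPM in every library. Of 10 genes listed as skeletal muscle markers 4 were tested, with a median log2 fold change of 0.69, and Acta1 alone passed, as higher, against 8.25% of all tested genes. Which cells made the transcripts of this list cannot be told from RNA of whole ventricles. Ckm, the most abundant of the list, had a log2 fold change of -0.11, with 1073 ± 303.2 CPM in controls (n = 5, SD) and 995.5 ± 367.1 CPM in cKO (n = 4, SD). Tnnt3 (0.62, edgeR adjusted p = 0.0529) and Mylpf (0.75, edgeR adjusted p = 0.0705) did not pass, at 22 to 36 and 15 to 36 counts in controls and 46 to 51 and 38 to 53 counts in cKO, without overlap. Myog, not tested, was read at most 1 time in a control library and 3 to 5 times in each cKO library, while Myod1 and Pax7 were at 0 in all 9 libraries. None of 7 mural cell or 6 macrophage markers passed by edgeR, against 16.3% of all tested genes, and none by DESeq2. At an unadjusted p under 0.05 by edgeR stood 3 of the mural and 0 of the macrophage markers, against 29.7% of all tested genes. Of 8 endothelial markers, with a median log2 fold change of -0.02, 1 passed, Tek, which fell by 0.28 on the log2 scale, against 8.03% of all tested genes. When single libraries were left out, Col1a1 did not pass without control replicate 3 or 5 or cKO replicate 1, 2 or 3 (0.38 to 0.55), Tcf21 without control replicate 3 (0.44), Dbh without control replicate 3, 4 or 5 or cKO replicate 1 or 2 (0.47 to 0.60), and Acta1 without control replicates 2 to 5 or cKO replicates 2 to 4, each in turn (1.87 to 2.29).

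Among the genes whose log2 level most resembled that of Sntg2 over the 9 libraries were Mt3, Pcolce2, Ece2 and Aldoc, with Pearson's r of 0.990, 0.990, 0.989 and 0.987. These libraries share the genotype groups, so that any gene with a large and even change would be near the top. Mt3, a metallothionein, stood at 3.09 ± 0.77 CPM in controls (n = 5, SD) and at 17.6 ± 3.62 CPM in cKO (n = 4, SD). Aldoc, a form of the glycolytic enzyme aldolase, went from 1.60 ± 0.48 to 12.0 ± 3.06 CPM.

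The 8 genes lie on 7 chromosomes, with Sgca and Sgcd both on chromosome 11, and of the nearest tested protein-coding genes on their sides 4 of 16 passed an adjusted p of 0.05 (25%, against 16.3% of all tested genes). On the sides of Sntg2, Pxdn, 156824 bases away, had a log2 fold change of -0.20 (edgeR adjusted p = 0.0612) and Tmem18, 211051 bases away, one of 0.05 (edgeR adjusted p = 0.757). Pxdn passed as lower in 3 alternatives and did not pass in 16. The 3 were DESeq2 (-0.20, DESeq2 adjusted p = 0.0264), the library set as a term (-0.23, edgeR adjusted p = 0.0256) and the fit without control replicate 3 (-0.23, edgeR adjusted p = 0.0486). For Sgca both neighbours passed as higher in cKO: Col1a1, 9749 bases away, with 0.52 (edgeR adjusted p = 0.0346), and Ppp1r9b, 14708 bases away, with 0.32 (edgeR adjusted p = 0.0228). Neither held up when single libraries were left out, Col1a1 as given above and Ppp1r9b without control replicate 3, 4 or 5 or cKO replicate 2 (0.25 to 0.30), and neither passed in the Rps3a3-low libraries alone (0.36 and 0.20). Without the filter on low counts Col1a1 had 0.51 (edgeR adjusted p = 0.076). Epm2a, beside Utrn, fell by 0.58 (edgeR adjusted p = 0.000428) and Vps4a, beside Sntb2, by 0.25 (edgeR adjusted p = 0.0115); neither passed in the Rps3a3-low libraries alone (-0.52 and -0.19). The neighbours of Dmd (Tmem47 and Tab3), Dtna (Asxl3 and Mapre2), Sntb1 (Mtbp and Has2) and Sgcd (Timd4 and Rack1) did not pass, nor did Stx11 beside Utrn or Utp4 beside Sntb2.

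Genes annotated inside the 8 were near 0 where they were counted. Hils1 lies within Sgca on the other strand, shares no exonic base with it and stood at no more than 0.106 CPM. None of the genes inside Dmd, Utrn, Sgcd or Sntb2 shares an exonic base with its host, and within Dtna an antisense gene shares 90 exonic bases and was not analysed here. No annotated gene overlapped Sntg2 or Sntb1.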

How the data were processed

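RNA from ventricles at postnatal day 7 was measured in 5 control and 4 cKO libraries, grouped by their labels; the study's methods name 4 control hearts and the labels 5, and all 5 were used. The authors deposited raw read counts per gene in 1 table with 0 other sample columns. Per the study's methods, poly(A) libraries were made with a stranded kit and sequenced as single-end reads of 75 base pairs. The submitters' processing notes name STAR 2.4.2a, HTSeq 0.6.1 and mm10; which gene annotation was counted, and whether by strand, is not given in the sources used here. No normalization had been applied to the deposited counts.

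Identifiers were matched to GENCODE M21 on GRCm38 (36429 of 38293, with 99.8% of the counts), and promoters came from RefSeq. Counts were fitted with edgeR 4.0.16 in R 4.3.3 (filterByExpr with a minimum count of 10, TMM scaling, robust quasi-likelihood F test on genotype, two-sided, Benjamini-Hochberg over 15318 genes); a call needed an adjusted p under 0.05 and a fold over 1.5. Further fits added the library set or Xist class, each split at 10 CPM, and their interactions with genotype. Within groups, libraries had Spearman correlations of 0.982 to 0.995. For correlations of levels a prior count of 2 was added before taking log2 CPM. The scripts were tested on simulated data.

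The 8 genes, all gene lists and the tests were chosen with earlier results of these data known. Genes named were the 8, all other complex genes, up to 4 per further list with the largest change among those past 0.05, those most like Sntg2 and the nearest neighbours; Lama2, Kcnj2, Mapk12, Ank3, Ank2, Des and the named marker genes were added after their values were seen. Some genes of these lists are not reported here and were left out of the counts, shares and figures. Alternatives were DESeq2 1.42.0, other scalings and filters, the replicate number as a block, the library set or Xist as a term, the Rps3a3-low libraries alone and leaving out each library.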

Additional observations from a re-analysis of the deposited data

Results flagged for a closer look

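In 86 groups of 4 or 5 libraries (43 tested genes in controls and in cKO), a library stood apart from the others of its group by Dixon's test in 5, where chance flags about 1 in 20. None was of the 8 genes. Among the complex genes, Dtnb stood at 4.51 CPM in cKO replicate 1, against 5.50 to 5.67 CPM in the other cKO libraries. Lama5 stood at 54.4 CPM in cKO replicate 2, against 38.1 to 40.6 CPM, still below every control. Ilk stood at 212.1 CPM in control replicate 1, against 190.9 to 195.6 CPM. Of the neighbouring genes, Asxl3 (beside Dtna) stood at 4.52 CPM in control replicate 2, against 6.14 to 6.79 CPM, and Has2 (beside Sntb1) at 1.88 CPM in cKO replicate 2, against 3.17 to 3.41 CPM.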

How the results depend on the processing

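Sntg2 was called in all 19 alternatives, with a log2 fold change of 2.99 (Rps3a3-low libraries alone) to 3.46, and of the 8 genes it was the 1 called in each. These fits reuse the libraries on which Sntg2 was picked, so they show only how its change varies with the processing. Leaving out 1 library gave 909 to 1171 calls over all genes, 1 of the 8 genes called and 2 other complex genes past an adjusted p of 0.05. The 5 Rps3a3-low libraries alone gave 620 calls (313 higher), 518 of them shared with the 1030 of the full fit; that fit has fewer samples. There 1 other complex gene passed. Interactions of genotype with library set numbered 2 in all genes, and 1 with RLE scaling or a filter at a mean of 1 CPM. Sntb2 had a log2 fold change of 0.28 with DESeq2 and 0.34 with the library set as a term, and Sgcd one of 0.35 with DESeq2 and 0.43 without control replicate 4. The Sgca log2 fold change was 0.08 with the library set as a term and 0.02 in the Rps3a3-low libraries, and its library set difference was -0.39 with RLE scaling and -0.40 with the mean CPM filter, both chosen after seeing the data. The interaction with Xist class was also added then.

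Directions reversed among genes near 0 that passed in no fit. In the Rps3a3-low libraries Dtnb was at -0.14 and Tab3 at 0.029. Over the fits that left out 1 library, Asxl3 ran from -0.052 (without control replicate 2) to 0.078, with -0.019 without cKO replicate 3. Has2 ran from -0.25 to 0.0016 and Utp4 from -0.050 to 0.020, both highest without cKO replicate 2. Timd4 ran from -0.27 to 0.13, with 0.13 without control replicate 2, 0.041 without cKO replicate 2 and 0.093 without cKO replicate 4. The cause was not tested. In the labels, same-numbered libraries shared only a number. The study compared cKO hearts with littermate controls, and which libraries were of the same litter is not given. For replicate numbers 1 to 4, the deviations of same-numbered libraries from their group means correlated at 0.0227, 0.0361, 0.0107 and 0.232. Both replicate 4 libraries were in the Rps3a3-high set. With the replicate number as a block 888 genes were called, Sntg2 at 3.20 among them, 1 of the 8 genes and 2 other complex genes; Aqp4 (-1.48), Ilk (0.26), Tln2 (-0.22), Vps4a (-0.24) and Ppp1r9b (0.30) no longer passed, with changes close to those without the block. At depths of 28 to 63 counts, the control level of Sntg2 rests on few reads, and counts do not resolve isoforms.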
